A study of Mus musculus with 26 samples.

Results

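The comparison described here sets Hoxa9/Meis1-transformed (H9M) mouse myeloid progenitor cells that had lost LSD1 and received all-trans retinoic acid (ATRA) against untreated H9M control cells. Its libraries were taken by title: the 3 labelled H9M KO + ATRA and the 3 labelled H9M CTL W/O ATRA, which make 6 of the 24 RNA libraries and of 26 samples in all. All 14663 of 48795 genes that passed a filter on low counts across the 24 libraries were tested. Gene counts came from total RNA sequenced after a stranded library preparation.

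All cells had a C57BL/6 background, and the strain field of every sample, knockouts included, reads CreERT2-;LSD1TM1Schuele. The cells grew in DMEM with 15% FCS and the cytokines IL-3, IL-6 and SCF. For the knockout libraries the labels list 4-hydroxy-tamoxifen at 0.1 µM for 72 h, and for the ATRA libraries ATRA at 1 µM. The untreated controls list neither agent, so loss of LSD1 and exposure to 4-hydroxy-tamoxifen cannot be told apart. The sources used here do not give the time in ATRA, the number of clones or pools or the part of the LSD1 gene removed. Other H9M groups used for context are controls with ATRA (H9M CTL + ATRA) and knockouts without it (H9M KO W/O ATRA), with 3 libraries each. The same 4 groups of MN1 progenitors, transformed with the leukaemia-associated coactivator MN1 and not with Hoxa9 and Meis1, give a second model. Whether replicate libraries are separate cultures is not in the labels, so p-values measure only the spread between these libraries, which may be technical.

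LSD1, the product of Kdm1a, is a histone demethylase that removes methyl groups from lysine 4 of histone H3 at promoters and enhancers. It works with CoREST proteins and histone deacetylases, and in blood progenitors it is brought to DNA by the repressors GFI1 and GFI1B, whose targets include genes of granulocytes, monocytes and macrophages. ATRA binds retinoic acid receptors, which sit with RXR partners on response elements and switch from repression to activation, and it drives granulocytic maturation in acute promyelocytic leukaemia. Each agent alone is known as a differentiation stimulus of myeloid leukaemia cells, and the series set out to examine both in 2 murine models.

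Kdm1a (ENSMUSG00000036940.15, chromosome 4, 136550533 to 136602787; coordinates throughout are GRCm38.p6 from the RefSeq table) was examined first. It had 138, 139.9 and 139 CPM (the gene's count relative to its library's total) in untreated controls and 11.5, 10.3 and 11.5 CPM in knockouts with ATRA. All knockout libraries therefore lay below all control libraries. The log2 fold change was -3.61 ± 0.05 (SE), with an adjusted p of 8.07e-32 (edgeR quasi-likelihood test, Benjamini-Hochberg adjustment, which give every adjusted p below). Each SE of a log2 value is that value divided by the square root of its F statistic, an approximation. It can be too small where a group has few counts, such as 11 for Gfi1b over the untreated controls. The knockout with ATRA kept 7.98% of the untreated control level. The knockout without ATRA, at 0.937, 0.998 and 0.952 CPM, kept 0.693%. Knockouts with ATRA thus held more Kdm1a transcript than knockouts without it (log2 difference 3.54 ± 0.10, adjusted p = 1.6e-22). In bulk RNA a minority of cells with an intact gene and a low level in every cell cannot be told apart; likewise, for every level below, fewer cells of a type and less RNA per cell.

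The 24 libraries held 22402558 to 32674685 counts each. Control cells expressed the genes of early granulocyte and monocyte progenitors: Mpo, the myeloperoxidase of primary granules, had 5516 ± 37.3 CPM (mean ± SD, n = 3), and Elane, neutrophil elastase, had 2447 ± 39.8 CPM. The stem cell factor receptor gene Kit had 268 ± 4.33 CPM. Hoxa9 had 27470 ± 440.1 CPM in untreated controls and 35190 ± 2972 CPM in knockouts with ATRA, and its partner Meis1 had 229 ± 7.05 and 421 ± 17.5 CPM. Both were called higher, by 0.40 ± 0.05 and 0.92 ± 0.05 on the log2 scale. Reads of an introduced copy and of the endogenous gene are counted together. Both groups thus held the genes their cell type is labelled with.

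Of the 14663 genes, 4162 were called higher (28.4%) and 4087 lower (27.9%) in knockouts with ATRA at an adjusted p under 0.05, 56.3% in either direction. The sizes were unequal: 1470 genes (10%) were called higher by 2-fold or more and 268 (1.83%) were called lower by as much. For 3782 of the higher and 3976 of the lower genes, no library of one group overlapped the other group. Among all genes tested, called or not, 60.5% had no overlap, so separate groups were the common case. Genes named below for a low adjusted p or a large change were picked from these same libraries. Their lack of overlap is therefore no further support. The median log2 fold change of all genes tested was 0. Counts of list members below are to be read against these shares. The lists share members, such as Csf1r, Irf8 and Fcgr3, so their counts are not independent.

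**Figure D1:**
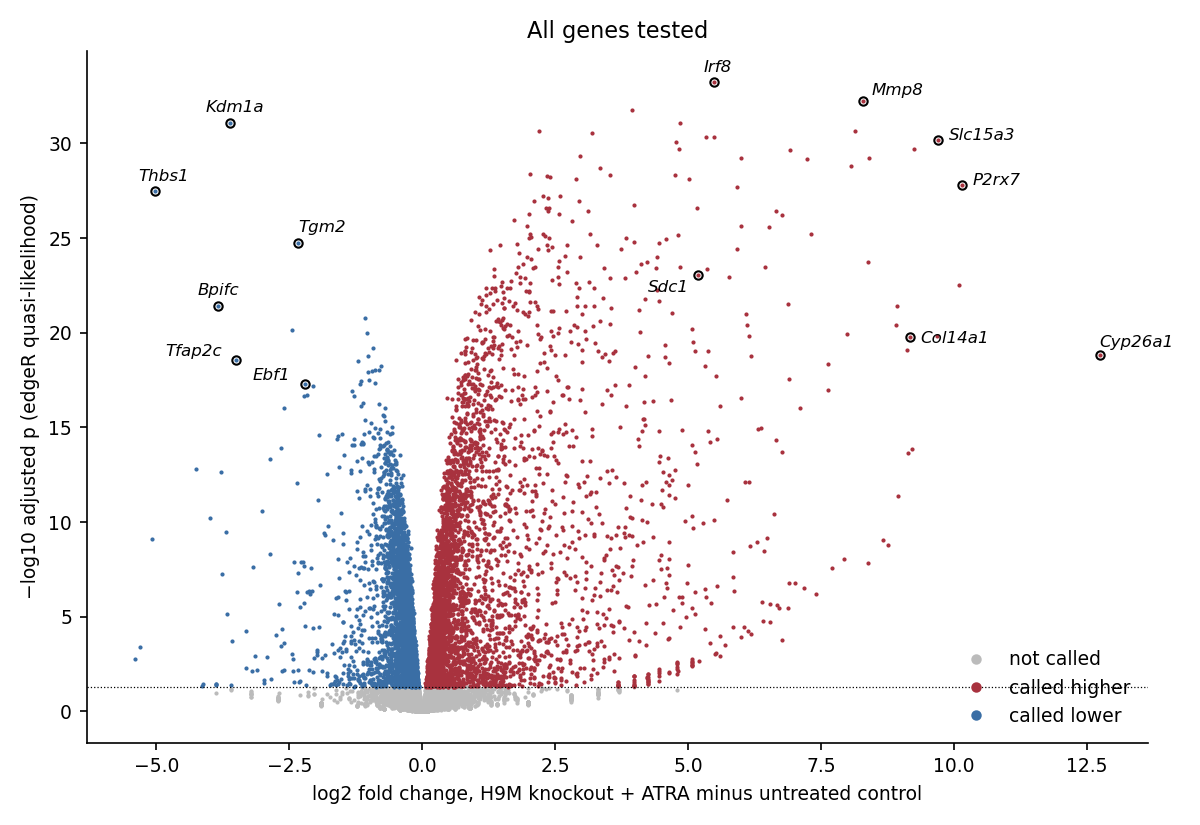
Log2 fold change of every gene tested (horizontal axis, knockout with ATRA minus untreated control) against -log10 adjusted p (vertical axis); red and blue points were called higher (4162) and lower (4087), grey points were not called, and 13 genes named in the text are circled. The right arm reaches further than the left; for genes with few or no control counts, such as Cyp26a1, the horizontal position depends on the fit and is not a bound.

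Genes of retinoic acid turnover and signalling went both ways, with more of them higher. Of 22 listed genes, 16 passed the count filter; 11 of these were called higher and 4 lower, with a median log2 fold change of 2.57, or 1.82 with low-count members at their bound (the fold against 3 counts over the group). Leaving out single libraries moved that median between 1.67 (without untreated control 2) and 3.07 (without untreated control 3). Cyp26a1 (ENSMUSG00000024987.5, chromosome 19, 37697738 to 37701536), which encodes the main enzyme that clears retinoic acid, had no counts in the 3 untreated controls. It reached 27.3, 32.4 and 31.3 CPM in knockouts with ATRA, at least 809-fold higher (adjusted p = 1.52e-19). Its relative Cyp26b1 (ENSMUSG00000063415.12, chromosome 6, 84571414 to 84593908) went from a group mean of 0.0259 CPM, 2 counts in all, to 25.9, 31.9 and 37.5 CPM, a ratio of 354 to 10600 by its 95% counting interval. Both clearing enzymes were at or near 0 in all untreated controls and present in all 3 treated knockouts.

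The promoters of Cyp26a1 and of the receptor gene Rarb are printed because they were the only ones of 17 listed retinoic acid genes with a RefSeq promoter that held the direct repeat bound by retinoic acid receptors. The motif searched was 2 copies of GNTCA with any 6 bases between them, on both strands, in windows from 250 bases before to 50 bases after the start; 0.99% of 27025 genes hold it. The sequences are RefSeq GRCm38.p6, 5′ to 3′ on the gene's strand, with the match in capitals. Cyp26a1 is on the plus strand at chr19:37697558-37697857, with the match starting at base -32 and reading on the minus strand. Rarb is on the minus strand at chr14:16575427-16575726, with the match starting at base -52. Both windows surround a start that lies inside the span printed for the gene, not at its outer end. A match describes the letters and shows no binding.
Cyp26a1: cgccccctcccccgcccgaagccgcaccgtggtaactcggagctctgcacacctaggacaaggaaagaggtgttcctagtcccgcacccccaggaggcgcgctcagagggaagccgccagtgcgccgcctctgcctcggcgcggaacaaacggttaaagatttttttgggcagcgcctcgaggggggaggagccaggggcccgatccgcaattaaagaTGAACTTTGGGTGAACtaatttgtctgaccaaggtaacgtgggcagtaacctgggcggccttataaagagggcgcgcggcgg
Rarb: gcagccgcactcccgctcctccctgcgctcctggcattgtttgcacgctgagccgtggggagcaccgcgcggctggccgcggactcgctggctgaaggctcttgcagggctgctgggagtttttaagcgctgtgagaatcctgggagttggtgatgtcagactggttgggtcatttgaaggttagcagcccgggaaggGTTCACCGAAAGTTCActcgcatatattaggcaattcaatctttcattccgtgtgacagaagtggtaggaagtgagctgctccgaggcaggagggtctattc

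Rarb (ENSMUSG00000017491.8, chromosome 14, 16430839 to 17082331), the beta receptor itself, had 0.0771, 0.177 and 0.157 CPM in untreated controls and 15.8, 15.7 and 17.8 CPM in knockouts with ATRA. The groups did not overlap, and the log2 fold change was 6.89 ± 0.21 (adjusted p = 3.08e-22). The receptor gene Rara rose from 24.5 ± 0.22 to 76.2 ± 1.81 CPM, whereas Rarg (log2 fold change -0.32 ± 0.07) and the partner Rxra (-0.58 ± 0.09) fell. The retinaldehyde reductase gene Dhrs3 (ENSMUSG00000066026.14, chromosome 4, 144892534 to 144928209) rose from 24.4 ± 1.17 to 217 ± 2.11 CPM, 9.1-fold. Hic1, a transcriptional repressor gene, went from 0, 0.106 and 0.0785 to 52.4, 51 and 58.5 CPM, and Nrip1, a nuclear receptor corepressor gene, from 0.0386, 0.106 and 0.0393 to 22.9, 21.4 and 21.3 CPM. In both genes every treated library exceeded every control library, though Hic1 was also named under a rule that required this.

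Within the H9M cells the retinoic acid genes differed in where they were high. Cyp26a1, Rarb and Hic1 were near 0 in knockouts without ATRA (0.0393, 0.181 and 0.147 CPM) and present in controls with ATRA (14.6, 10.8 and 16.7 CPM). Cd38, the NAD-consuming ectoenzyme used as a retinoic acid response marker, had 0.576 CPM in untreated controls, 1.5 with ATRA, 27 in knockouts and 86.1 CPM with both (log2 fold change 7.25 ± 0.11). Relative to controls with ATRA, the knockout with ATRA was higher for Cyp26a1 by 1.06 ± 0.11, for Hic1 by 1.69 ± 0.15, for Dhrs3 by 1.35 ± 0.04 and for Rarb by 0.61 ± 0.10 on the log2 scale (adjusted p = 1.02e-08, 3.75e-11, 3.21e-23 and 9.97e-06). In that comparison 26.7% of all genes were called higher and 24.4% lower; 11 of the 16 listed members were called higher and 3 lower. These comparisons share libraries with one another.

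Tgm2 (ENSMUSG00000037820.15, chromosome 2, 158116405 to 158146392), a transglutaminase that retinoic acid induces in macrophages, went the other way. It had 116, 117 and 119.7 CPM in untreated controls and 21.3, 24.2 and 22.7 CPM in knockouts with ATRA (log2 fold change -2.33 ± 0.05, adjusted p = 1.74e-25). Controls with ATRA had 274, 276 and 277 CPM and knockouts without it 0.893, 0.798 and 1.39 CPM. The order was therefore control with ATRA, control, knockout with ATRA, knockout, with no overlap between neighbours. The knockout with ATRA had 8.26% of the Tgm2 level of controls with ATRA, and 7.51% of their Kdm1a level. When 7.51% of the mean profile of controls with ATRA was taken out of each knockout library with ATRA, the log2 fold change of Tgm2 was -5.66. Whether the treated knockouts hold such a share, or ATRA raises Tgm2 in knockout cells, was not tested.

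**Figure D2:**
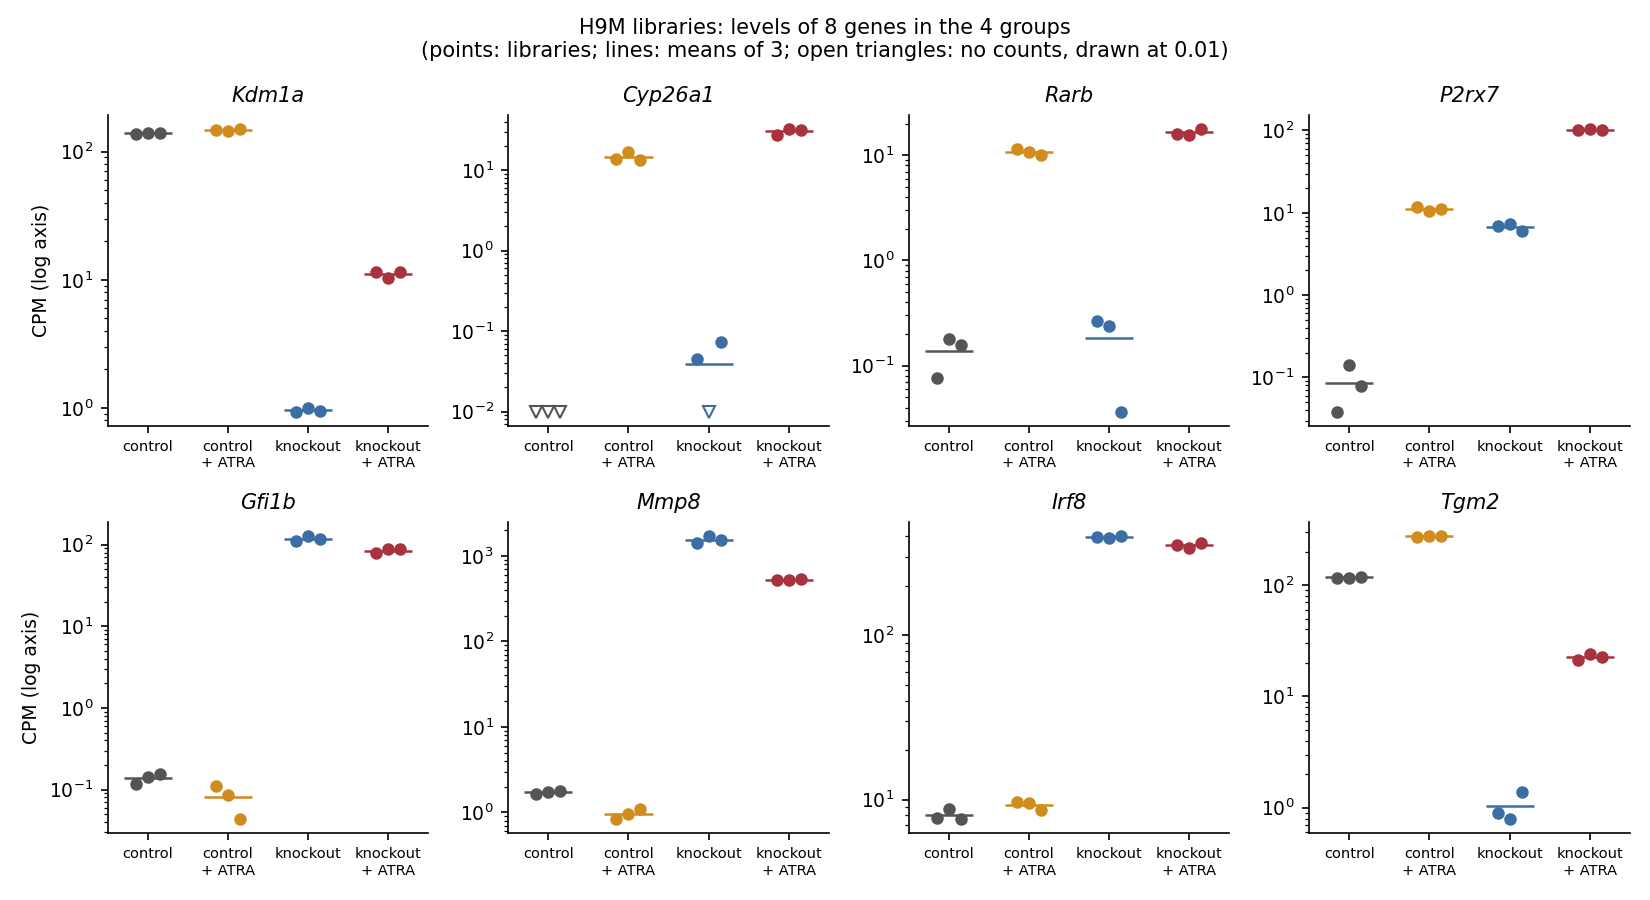
CPM (logarithmic axis) of Kdm1a, Cyp26a1, Rarb, P2rx7, Gfi1b, Mmp8, Irf8 and Tgm2 in the 12 H9M libraries; points are libraries, lines are means of 3 and open triangles are libraries without counts, drawn at 0.01. Cyp26a1 and Rarb are high in both ATRA groups, Gfi1b, Mmp8 and Irf8 in both knockout groups, P2rx7 is highest with both, and Tgm2 is lowest in knockouts.

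Among genes of the LSD1 complex, 15 were tested, 3 were called higher and 7 lower, with a median log2 fold change of -0.07 (-0.03 without untreated control 1 and -0.10 without untreated control 2). The corepressor gene Rcor3 went from 13.9 ± 0.998 to 8.59 ± 0.603 CPM (log2 fold change -0.66 ± 0.08), and the deacetylase genes Hdac1 and Hdac2 fell by less (-0.25 ± 0.04 and -0.24 ± 0.04). Rcor1, the main CoREST scaffold gene, did not pass the test (0.05 ± 0.04, adjusted p = 0.258). The LSD1-recruiting repressors moved up. Gfi1b (ENSMUSG00000026815.14, chromosome 2, 28609450 to 28621982) had 0.116, 0.142 and 0.157 CPM in untreated controls and 78.5, 87.3 and 88.3 CPM in knockouts with ATRA, and its log2 fold change was 9.25 ± 0.14 (adjusted p = 2.04e-30). Its paralogue Gfi1 rose from 223 ± 8.94 to 349.9 ± 6.14 CPM (0.69 ± 0.04). Gfi1b was higher still in knockouts without ATRA, at 118 ± 8.11 CPM, and the difference with ATRA was -0.46 ± 0.05 (adjusted p = 1.94e-08), among 15.4% of all genes called lower and 13.9% called higher in that comparison.

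Of 22 tested genes known as GFI1 or GFI1B targets, 15 were called higher and 4 lower (median 0.58, or 0.64 with low-count members at their bound). Hoxa9 and Meis1, which transformed these cells, are among the 15, and reads of introduced copies are counted with them. The higher ones included Id3, an inhibitor of helix-loop-helix factors, with no counts in untreated controls and 2.63 CPM in knockouts with ATRA. They also included the cell cycle inhibitor gene Cdkn1a (from 22.3 ± 2.07 to 62.9 ± 0.785 CPM, log2 fold change 1.53 ± 0.05) and the death-promoting gene Bcl2l11 (1.06 ± 0.07). Elane, Tlr4, Id1 and Bmi1 fell, Elane the furthest (-0.80 ± 0.05). The GFI1 core AATCACNGC was found, on either strand, in the promoter window of 1 of 18 listed genes, Bcl2l11, against 1.05% of all genes.

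The myeloid transcription factors moved unequally: 15 of 23 tested were called higher and 2 lower, with a median of 0.29 (0.51 without untreated control 2; 1 lower without treated knockout 1 or 2). Irf8 (ENSMUSG00000041515.9, chromosome 8, 120736358 to 120756694), which directs progenitors to the monocyte and dendritic fates, had 7.75, 8.77 and 7.65 CPM in untreated controls and 354, 339 and 366 CPM in knockouts with ATRA. That is 44.9-fold higher, with no overlap (log2 fold change 5.49 ± 0.06, adjusted p = 5.82e-34). Spi1, which encodes PU.1, a master factor of the same lineages, rose far less, from 162 ± 3.73 to 193 ± 7.96 CPM (0.29 ± 0.04). Irf5, a factor of inflammatory macrophages, rose by 2.73 ± 0.07, Maf by 5.42 ± 0.31, Fos by 3.81 ± 0.28 and Zeb2 by 1.13 ± 0.04. Cebpe, needed for late granulocyte maturation, fell by 0.29, and Klf4 (-0.44 ± 0.44) and Cebpb (0.01 ± 0.11) did not pass the test. Irf8 was at 9.26 ± 0.584 CPM in controls with ATRA and 395 ± 5.46 CPM in knockouts without it, so the knockout groups were high and the control groups low.

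Of 27 tested PU.1 target genes, 20 were called higher and 2 lower, Tlr4 among them, with a median of 0.92, or 0.82 with low-count members at their bound. Ctss (ENSMUSG00000038642.10, chromosome 3, 95526786 to 95556405), the lysosomal protease cathepsin S of antigen-presenting cells, had 0.771, 0.674 and 0.353 CPM in untreated controls and 59.5, 60.3 and 58.7 CPM in knockouts with ATRA, with a log2 fold change of 6.65 ± 0.13. Slc11a1, a metal transporter of phagosomes, rose by 4.76 ± 0.08 and the Toll-like receptor homologue Cd180 by 4.86 ± 0.13. Btk, Ncf4, Egr2, Cd14 and Il7r did not pass the test. Against knockouts without ATRA, 4 members were called higher and 13 lower; against controls with ATRA, 20 were called higher and 2 lower. A PU.1 motif, GAGGAAGT on either strand, was in the window of 1 of 21 genes, against 3.69% of all. It was that of Ctss (plus strand, chr3:95526536-95526835), shown with the match, on the minus strand, in capitals.
Ctss: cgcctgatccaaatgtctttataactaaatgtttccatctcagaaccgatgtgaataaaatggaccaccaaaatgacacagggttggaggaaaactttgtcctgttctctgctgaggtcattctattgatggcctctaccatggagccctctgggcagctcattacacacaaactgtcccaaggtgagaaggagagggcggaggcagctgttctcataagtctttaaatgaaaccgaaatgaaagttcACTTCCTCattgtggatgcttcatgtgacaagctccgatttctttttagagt

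Most monocyte and macrophage genes that could be tested rose. Of 30 listed, 22 passed the filter, 18 of these were called higher and 2 lower, and the median was 1.29. Cd14 and Itgax did not pass the test. The macrophage genes Mrc1, Cd36, Marco, Mertk, C1qa, C1qb, C1qc and Ms4a7 had too few counts to be tested. Siglec1, the sialic acid receptor of resident macrophages, had a group mean of 0.0247 CPM, 2 counts in all, in untreated controls and 13.5, 16.7 and 17.8 CPM in knockouts with ATRA, a ratio of 178 to 5320 by its counting interval. The fungal sugar receptor gene Clec7a rose from 1.17 ± 0.63 to 73.3 ± 3.91 CPM, and Csf1r, the receptor for the macrophage growth factor, from 1.21 ± 0.118 to 25.8 ± 0.968 CPM. Adgre1, the F4/80 antigen, rose from 12.2 ± 1.49 to 188 ± 0.344 CPM and the pore-forming perforin-2 gene Mpeg1 from 16.8 ± 1.55 to 188 ± 1.66 CPM. In all 5 genes the groups did not overlap, but Clec7a, Csf1r, Adgre1 and Mpeg1 were named for a low adjusted p, which favours this. Tlr4 (log2 fold change -0.50 ± 0.09) and the clotting factor gene F13a1 (-0.27 ± 0.04) fell. The summed level of the tested members was 2392 to 2488 CPM in untreated controls, 1952 to 1998 in controls with ATRA, 5644 to 5799 in knockouts and 4363 to 4526 CPM in knockouts with ATRA. The treated knockouts thus lay between the knockouts and both control groups, with 5 members called higher and 11 lower than in knockouts without ATRA.

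Late neutrophil genes went both ways. Of 25 listed genes of secondary granules and late maturation, 19 passed the filter; 10 were called higher and 4 lower (median 0.94, or 0.55 with low-count members at their bound, 0.05 with no filter on low counts and 0.61 without treated knockout 2). Mmp8 (ENSMUSG00000005800.2, chromosome 9, 7558429 to 7568486), neutrophil collagenase, had 1.62, 1.74 and 1.77 CPM in untreated controls and 519.6, 518 and 532 CPM in knockouts with ATRA (log2 fold change 8.29 ± 0.09, adjusted p = 5.75e-33). Knockouts without ATRA had 1419, 1703 and 1520 CPM, so the treated knockouts were lower (log2 difference -1.54 ± 0.05, adjusted p = 1.68e-20). Mmp9 (ENSMUSG00000017737.2, chromosome 2, 164940326 to 164955850), gelatinase B, showed another order: 0.809, 0.781 and 0.824 CPM in untreated controls, 17.9, 15.7 and 14.1 with ATRA, 1.34, 2.59 and 2.01 in knockouts and 245, 280 and 279 CPM with both. Mmp9 was therefore highest in all 3 knockout libraries with ATRA.

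The annexin gene Anxa1 rose from 19 ± 0.522 to 146 ± 5.9 CPM, the haptoglobin gene Hp from 32.5 ± 0.752 to 144 ± 3.44 CPM and the neutrophil surface antigen gene Ly6g from 1.71 ± 0.317 to 28.1 ± 3.42 CPM. The calgranulin genes fell: S100a8 had 19, 18.1 and 18 CPM in untreated controls and 7.81, 8.4 and 6.66 CPM in knockouts with ATRA (log2 fold change -1.23 ± 0.10), while controls with ATRA had 1.3 ± 0.275 CPM and knockouts alone 47.7 ± 1.79 CPM. S100a9, Stfa1 and Itgb2l were also called lower, at levels under 5 CPM. Lcn2, a siderophore-binding granule protein gene, was at 85.2 ± 4.18 and 85.5 ± 2.34 CPM and did not pass (adjusted p = 0.539), and Ltf, the lactoferrin gene, had no counts in untreated controls and 0.064 CPM in treated knockouts. Ngp had 0.0249 and 0 CPM, so both of these secondary granule genes were near the limit of detection.

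Primary granule genes, made early in granulocyte development, were already abundant in control cells. Of 12 tested, 2 were called higher and 6 lower, with a median of -0.12. Elane fell from 2447 ± 39.8 to 1371 ± 79.1 CPM and Ctsg, cathepsin G, from 2432 ± 112 to 1706 ± 54.2 CPM. Mpo had 5516 ± 37.3 CPM in untreated controls, 1446 ± 10.4 with ATRA, 8253 ± 127 in knockouts and 4927 ± 216 CPM with both, so its small fall (-0.12 ± 0.04) stood between a lower level with ATRA and a higher one in knockouts. Prtn3 (0.21 ± 0.05) and Calr (0.47 ± 0.02) rose.

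Among 11 genes of the phagocyte oxidase and the Fc receptors, 8 were called higher and 2 lower (median 0.63). Cybb (ENSMUSG00000015340.10, chromosome X, 9435252 to 9487766), the catalytic gp91 subunit, had 3.62, 2.56 and 2.71 CPM in untreated controls and 129, 128 and 130.4 CPM in knockouts with ATRA, with a log2 fold change of 5.49 ± 0.07. The cytosolic organiser gene Ncf1 rose from 219 ± 2.84 to 466 ± 9.65 CPM. Ncf1 was at 395 ± 6.44 CPM in controls with ATRA and 208 ± 3.56 CPM in knockouts alone, whereas Cybb was at 2.67 ± 0.478 and 246 ± 2.45 CPM. These subunits of 1 enzyme were thus high in different groups, Cybb in knockouts and Ncf1 with ATRA. The 2 lower calls, Cyba (log2 fold change -0.10 ± 0.04) among them, were 1 call in place of 2 under DESeq2 size factors, with DESeq2 itself, with the H9M libraries alone and without untreated control 2 or 3 or treated knockout 2. Fcgr4 rose by 2.57 ± 0.09, Fcgr1 by 3.51 ± 0.26 and Fcgr3 by 0.82 ± 0.03.

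Interferon response genes were called higher in 17 of 21 tested cases and lower in 0 (median 0.86, or 0.99 with low-count members at their bound). The GTPase gene Gbp2 (ENSMUSG00000028270.12, chromosome 3, 142620663 to 142638008) had 3.12, 3.37 and 3.22 CPM in untreated controls and 21.9, 23.3 and 20.6 CPM in knockouts with ATRA (6.95-fold). Oasl2 rose from 0.213 ± 0.0564 to 9.78 ± 0.135 CPM, Irf7 from 4.28 ± 0.57 to 12.2 ± 0.375 CPM and Irf9, the DNA-binding part of the interferon-activated complex, from 13.4 ± 0.708 to 28.8 ± 0.146 CPM. In all 4 genes the groups did not overlap, but they were named for the lowest adjusted p of the list, which favours this. Stat2, Ddx58, Bst2 and Mx2 did not pass the test. A count of 1 lower member in place of 0 appeared when single libraries were left out (untreated control 2 or treated knockout 1 or 2). The interferon-stimulated response element, GAAA, any 2 bases and GAAA, on either strand, was in the promoter windows of 11 of 19 listed genes and of 8 of 15 called members, against 3.99% of all genes. The window of Gbp2 (plus strand, chr3:142620413-142620712) is shown with the match in capitals; the match starts at base -59 and reads on the minus strand.
Gbp2: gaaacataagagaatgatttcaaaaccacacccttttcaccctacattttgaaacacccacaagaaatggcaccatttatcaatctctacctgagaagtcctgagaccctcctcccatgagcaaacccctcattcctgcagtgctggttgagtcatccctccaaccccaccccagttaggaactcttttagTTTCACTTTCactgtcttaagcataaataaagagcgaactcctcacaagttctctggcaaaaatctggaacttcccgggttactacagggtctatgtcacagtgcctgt

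Of 12 tested genes of MHC class II and dendritic cells, 7 were called higher and 0 lower (median 1.62, or 0.95 with low-count members at their bound). Most were scarce. Cd74, the invariant chain, rose from 0.287 ± 0.0627 to 4.8 ± 0.172 CPM and the costimulatory gene Cd80 from 1.89 ± 0.21 to 9.09 ± 0.264 CPM. H2-Ab1, the class II beta chain gene, did not pass (37.4 ± 0.893 and 36.8 ± 1.29 CPM, adjusted p = 0.826), and neither did H2-DMa (-0.02 ± 0.05) or H2-DMb1 (-0.01 ± 0.04).

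Genes for adhesion and homing rose widely, 18 of 23 tested, with 1 (Thbs1) lower (median 0.80, or 0.92 with low-count members at their bound and 1.35 without untreated control 1). Itgb7, the integrin beta 7 gene of gut homing, had 5.01, 4.97 and 4.24 CPM in untreated controls and 159.6, 167 and 172 CPM in knockouts with ATRA (log2 fold change 5.17 ± 0.10), and the groups did not overlap. Ccr2, the receptor of monocyte egress, rose from 42.8 ± 5.07 to 231 ± 20.1 CPM, and the anaphylatoxin receptor gene C5ar1 from 1.76 ± 0.261 to 21.1 ± 1.25 CPM. Among 27 cytokine receptor genes, 19 were called higher and 3 (Kit, Il1r1 and Tnfrsf1b) lower (median 0.57). Il6st, the signal chain of the IL-6 receptor whose ligand was in the medium, rose from 7.63 ± 0.107 to 64.6 ± 1.77 CPM and its partner Il6ra from 26.6 ± 0.824 to 76.2 ± 2 CPM. Kit, the receptor of SCF, also in the medium, fell from 268 ± 4.33 to 153 ± 5.44 CPM (log2 fold change -0.77 ± 0.03). The receptor list therefore moved up on the whole with these 3 as exceptions. Lysosomal genes were called higher in 18 of 22 cases and lower in 2 (median 0.50): the sphingolipid activator gene Psap rose from 527 ± 9.62 to 2348 ± 45.5 CPM and the acid lipase gene Lipa from 64.6 ± 4.27 to 191 ± 6.79 CPM. Of the lower pair, Gla (log2 fold change -0.17 ± 0.04) among them, 1 was no longer called under DESeq2 size factors, with DESeq2, in both smaller fits and without untreated control 1 or 3 or treated knockout 2 or 3.

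**Figure D3:**
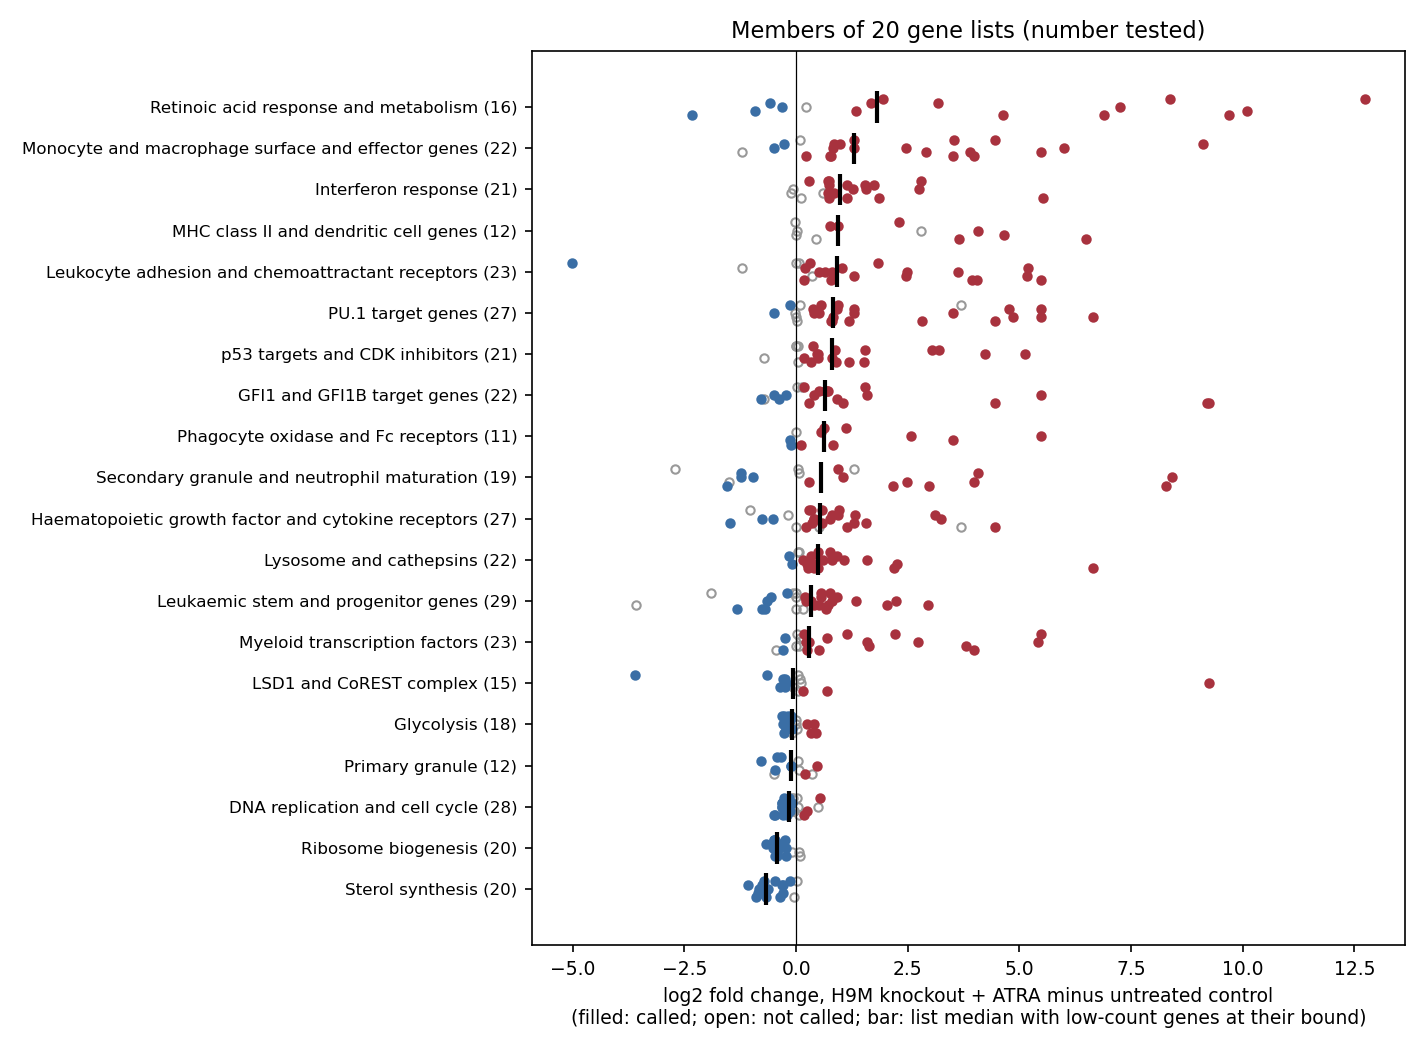
Log2 fold change (horizontal axis, knockout with ATRA minus untreated control) of the tested members of 20 gene lists, with the number tested after each name; filled points were called (red higher, blue lower), open points were not, and black bars are list medians with low-count members at their bound. The retinoic acid list has the highest bar (1.82) and the sterol synthesis list the lowest (-0.68).

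Stem and progenitor genes went both ways: 16 of 29 were called higher and 6 lower (median 0.21, or 0.33 with low-count members at their bound). The 16 include the transforming genes Hoxa9 and Meis1, whose reads can come from introduced copies. Cd34, a surface antigen of progenitors, rose from 214 ± 5.98 to 850.5 ± 18.1 CPM, Mef2c, a factor of lymphoid and leukaemic progenitors, from 4.6 ± 0.534 to 35 ± 0.344 CPM, and Erg from 72.7 ± 2.01 to 179 ± 9.87 CPM. The transcription factor genes Myb and Myc, which sustain progenitor proliferation, fell from 381 ± 7 to 229 ± 3.85 and from 437 ± 14.2 to 269 ± 7.91 CPM, and the angiopoietin gene Angpt1 from 60.1 ± 5.13 to 23.4 ± 2.96 CPM. Surface and factor genes of progenitors thus moved apart, Cd34 and Erg up and Kit and Myb down.

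Genes of growth fell by small amounts. Of 28 genes of DNA replication and mitosis, 3 were called higher and 16 lower, with a median of -0.16; Cdc20, an activator of mitotic exit, went from 159 ± 7.26 to 111 ± 3.48 CPM and the replicative helicase gene Mcm7 from 393 ± 6.15 to 307 ± 5.2 CPM. Ccnd2, a G1 cyclin gene, rose from 226 ± 4.08 to 320.4 ± 14.6 CPM, and Mki67, Pcna and Top2a did not pass. Of 20 ribosome biogenesis genes, 17 were called lower and 0 higher (median -0.43). The nucleolar protein genes Npm1 and Ncl fell from 1696 ± 48.7 to 1156 ± 45.6 and from 1719 ± 38.4 to 1242 ± 70.8 CPM, and Gnl3 fell the furthest (-0.67 ± 0.04); 1 member, in place of 0, was called higher under DESeq2 size factors, with DESeq2, in both smaller fits or without untreated control 3. Glycolysis genes had a median of -0.10, with 10 of 18 called lower and 4 higher, among them Ldha (-0.32 ± 0.03) and Slc2a1 (0.43 ± 0.04).

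Among 21 p53 targets and CDK inhibitors, 16 were called higher and 0 lower (median 0.50, or 0.80 with low-count members at their bound). Cdkn1c (ENSMUSG00000037664.13, chromosome 7, 143458339 to 143461059), the p57 inhibitor, had 0.578, 0.568 and 0.353 CPM in untreated controls and 19.1, 16 and 16.8 CPM in knockouts with ATRA. It was at 12.1, 12.8 and 12.2 CPM in controls with ATRA and 0.357, 0 and 0.293 CPM in knockouts alone. It was therefore high in both ATRA groups, in contrast to Cdkn1a, the p21 inhibitor, at 13.7 ± 0.07 CPM in controls with ATRA and 117 ± 5.4 CPM in knockouts alone. Ccng1 rose by 0.80 ± 0.04 and Cdkn2d, p19, by 1.18 ± 0.06.

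Sterol synthesis genes fell together. Of 20 tested, from the first committed step to cholesterol and its regulators, 18 were called lower and 0 higher, and the median was -0.68 against 0 for all genes. Sqle (ENSMUSG00000022351.14, chromosome 15, 59315092 to 59331193), squalene epoxidase, had 165, 165 and 163 CPM in untreated controls and 98.4, 99.6 and 99.2 CPM in knockouts with ATRA (log2 fold change -0.69 ± 0.04, adjusted p = 4.72e-16). Lss, the lanosterol synthase gene, went from 85, 85.6 and 91 to 48.6, 48.8 and 46.3 CPM. Both genes were lower in all 3 treated knockouts than in any control.

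Nsdhl, a sterol dehydrogenase gene, had a log2 fold change of -0.89 ± 0.05 and the farnesyl diphosphate synthase gene Fdps one of -1.08 ± 0.12. Srebf2, the gene of the factor that activates the pathway, also fell (-0.29 ± 0.03). Sc5d, a sterol desaturase gene, did not pass the test (log2 fold change 0.02 ± 0.06, adjusted p = 0.799). Against the same untreated controls, the median was -0.23 in controls with ATRA and -0.21 in knockouts without it. Directly, 18 members were called lower and 0 higher in the knockout with ATRA than in the knockout alone, and 18 lower and 0 higher than in controls with ATRA (Sc5d and Insig1 were not in the first, Sc5d and Hsd17b7 not in the second). These comparisons share libraries with one another. A sterol response element, TCACNCCAC on either strand, was in the promoter window of 1 of 14 listed genes, Hmgcs1, against 1.44% of all genes.

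**Figure D4:**
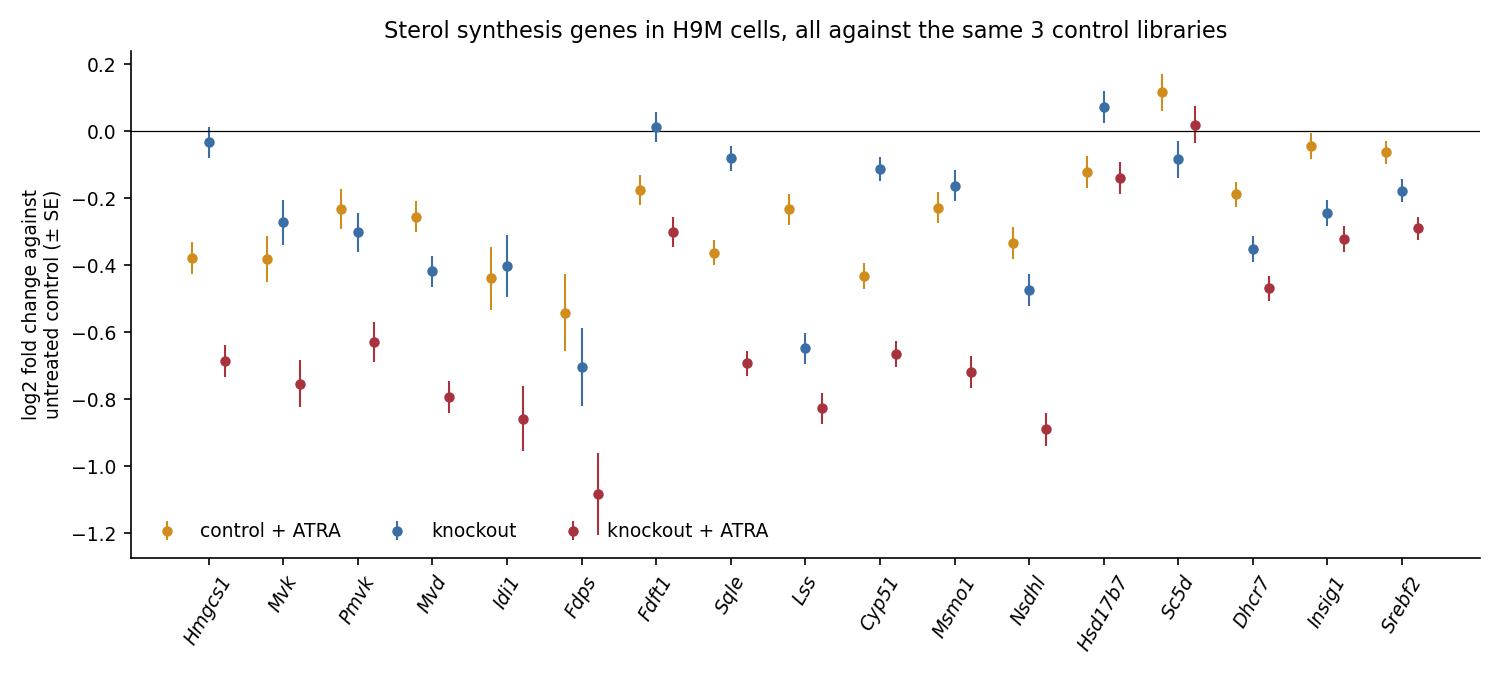
Log2 fold change against the same 3 untreated H9M controls (vertical axis, points with SE bars) of 17 genes of the sterol synthesis list, in pathway order, in controls with ATRA, knockouts and knockouts with ATRA. The lowest point is the knockout with ATRA for every gene drawn except Sc5d, which did not pass the test against untreated controls.

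The falls were led by Thbs1 (ENSMUSG00000040152.8, chromosome 2, 118111876 to 118127133), thrombospondin 1, a matrix protein of platelets and stroma. It had 1414, 1430 and 1396 CPM in untreated controls and 36.4, 43.7 and 46.3 CPM in knockouts with ATRA, a log2 fold change of -5.02 ± 0.09 (adjusted p = 3.23e-28). Controls with ATRA had 938, 966 and 995 CPM and knockouts alone 97.1, 108 and 100.0 CPM, so each group stood apart and the treated knockouts lowest. Bpifc, a lipid-binding protein gene, fell from 38 ± 0.629 to 2.62 ± 0.551 CPM, and Tfap2c, an AP-2 transcription factor gene, from 9.88 ± 0.171 to 0.84 ± 0.164 CPM. Ebf1, a B-lineage factor gene, fell from 18.3 ± 0.187 to 3.89 ± 0.477 CPM, with 2.07 ± 0.285 CPM in knockouts alone. The treated knockouts had 13.3% of the Ebf1 level of controls with ATRA. Without the 7.51% share described for Tgm2 the log2 fold change of Ebf1 was -3.30 in place of -2.20. The share was set from Kdm1a alone. Whether it holds for Thbs1 (938 to 995 CPM in controls with ATRA, 36.4 to 46.3 CPM in treated knockouts) was not tested. Other genes in the lower tail were the galactosyltransferase gene B4galt4 (-2.44 ± 0.09), the sodium pump subunit gene Atp1b1 (-2.05 ± 0.09) and the myosin gene Myo1e (-2.17 ± 0.10).

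Among the largest rises outside the lists, P2rx7 (ENSMUSG00000029468.17, chromosome 5, 122643927 to 122692336), the ATP-gated channel of inflammasome activation, had 0.0386, 0.142 and 0.0785 CPM in untreated controls and 102, 104 and 101 CPM in knockouts with ATRA (log2 fold change 10.15 ± 0.18). Slc15a3, a lysosomal peptide transporter gene, went from 0.116, 0.071 and 0.0393 to 64.6, 64.2 and 66.6 CPM, and Tmem268 from 0.239 ± 0.0419 to 63.6 ± 1.62 CPM. Separate groups were a condition for naming genes among the largest rises. The endosomal RNA sensor gene Tlr8 went from 2 counts over the controls to 14 ± 0.547 CPM, a ratio of 154 to 4610, and the cytosolic sensor gene Naip1 from 3 counts to 19.9 ± 1.53 CPM, a ratio of 182 to 2580. Naip1 has close paralogues, among which reads can be split.

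To ask where the combined state went past both single changes, the knockout with ATRA was compared with each of the other 3 H9M groups. In all 3 comparisons 950 genes (6.48%) were called higher and 743 (5.07%) lower; 145 (0.989%) were at least 2-fold higher and 22 (0.15%) at least 2-fold lower in all 3. All 145 had no library overlap with the other groups, which calls at 2-fold against each group in the same libraries make likely. Col14a1 (ENSMUSG00000022371.15, chromosome 15, 55307644 to 55520803), a fibril-associated collagen gene, had 0.0771, 0 and 0.0393 CPM in untreated controls, 0.33, 0.303 and 0.22 with ATRA, 0.0893, 0 and 0 in knockouts and 19.4, 25.4 and 26.6 CPM with both. It was near 0 outside the combined group.

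Mmp12, macrophage elastase, had 0.53 ± 0.116, 3.49 ± 0.409, 8.28 ± 0.905 and 146 ± 9.86 CPM in the same order, and the syndecan gene Sdc1 had 0.894 ± 0.0683, 0.955 ± 0.255, 2.78 ± 0.164 and 31.7 ± 1.42 CPM. The copper ferroxidase gene Cp had 0.533 ± 0.26, 4.27 ± 0.612, 2.7 ± 0.125 and 46.4 ± 1.71 CPM, and the secreted kinase-like gene Fam20a 0.465 ± 0.0737, 3.38 ± 0.351, 1.2 ± 0.244 and 24.9 ± 1.21 CPM. In these 4 genes the combined group was the highest, with a mean well above either single change. Sema3a, an axon-guidance ligand gene, and Plcl1, a phospholipase-like gene, were also named, at 13.7 ± 1.01 and 12.6 ± 0.541 CPM with both. Mmp9, Naip1 and P2rx7, described above, complete the 10 genes named as higher in all 3 comparisons. The 10 named as lower in all 3 were Thbs1, the myeloid receptor gene Trem3 (33.8 ± 1.98, 16.8 ± 1.31, 14.8 ± 1.49 and 7.11 ± 0.797 CPM), the phosphatase gene Ptpru (17.1 ± 0.391, 10.2 ± 0.884, 10.4 ± 0.949 and 4.3 ± 1.08 CPM), Klhl23, Mreg, Cystm1, Adcy3, Cited4, the niacin receptor gene Hcar2 and Kif21a.

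Going past both single changes is not the same as going past their sum, taken here on the log2 scale. The interaction, the ATRA change in knockouts minus the ATRA change in controls, was called higher for 330 genes (2.25%) and lower for 409 (2.79%). Of these 10 higher and 10 lower genes, 9 were called. Above the log2 sum were Col14a1 (log2 6.78 ± 1.84), Sdc1 (3.38 ± 0.29), Mmp9 (2.74 ± 0.35), Plcl1, Fam20a and Mmp12. Below it were P2rx7 (-3.01 ± 0.47), Thbs1 and Ptpru. The value for P2rx7 rests on 7 counts over the untreated controls. In CPM, P2rx7 was at 102 with both, against 11.1 in controls with ATRA and 6.78 in knockouts alone. The call for Col14a1 rests on few control counts: leaving out untreated control 1 or 3 gave an adjusted p of 0.36 or 0.1. Ptpru lost its call without any one untreated control, without treated knockout 1 or 3 (adjusted p from 0.0622 to 0.169) and with the H9M libraries alone (0.0873). Cp, with an adjusted p of 0.0577, gained a call without untreated control 3 and under 4 other settings. Cyp26a1, Hic1, Rarb, Gfi1b, Siglec1, Trem3 and Cited4 did not pass the interaction test, with adjusted p from 0.536 for Siglec1 to 0.965 for Hic1.

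**Figure D5:**
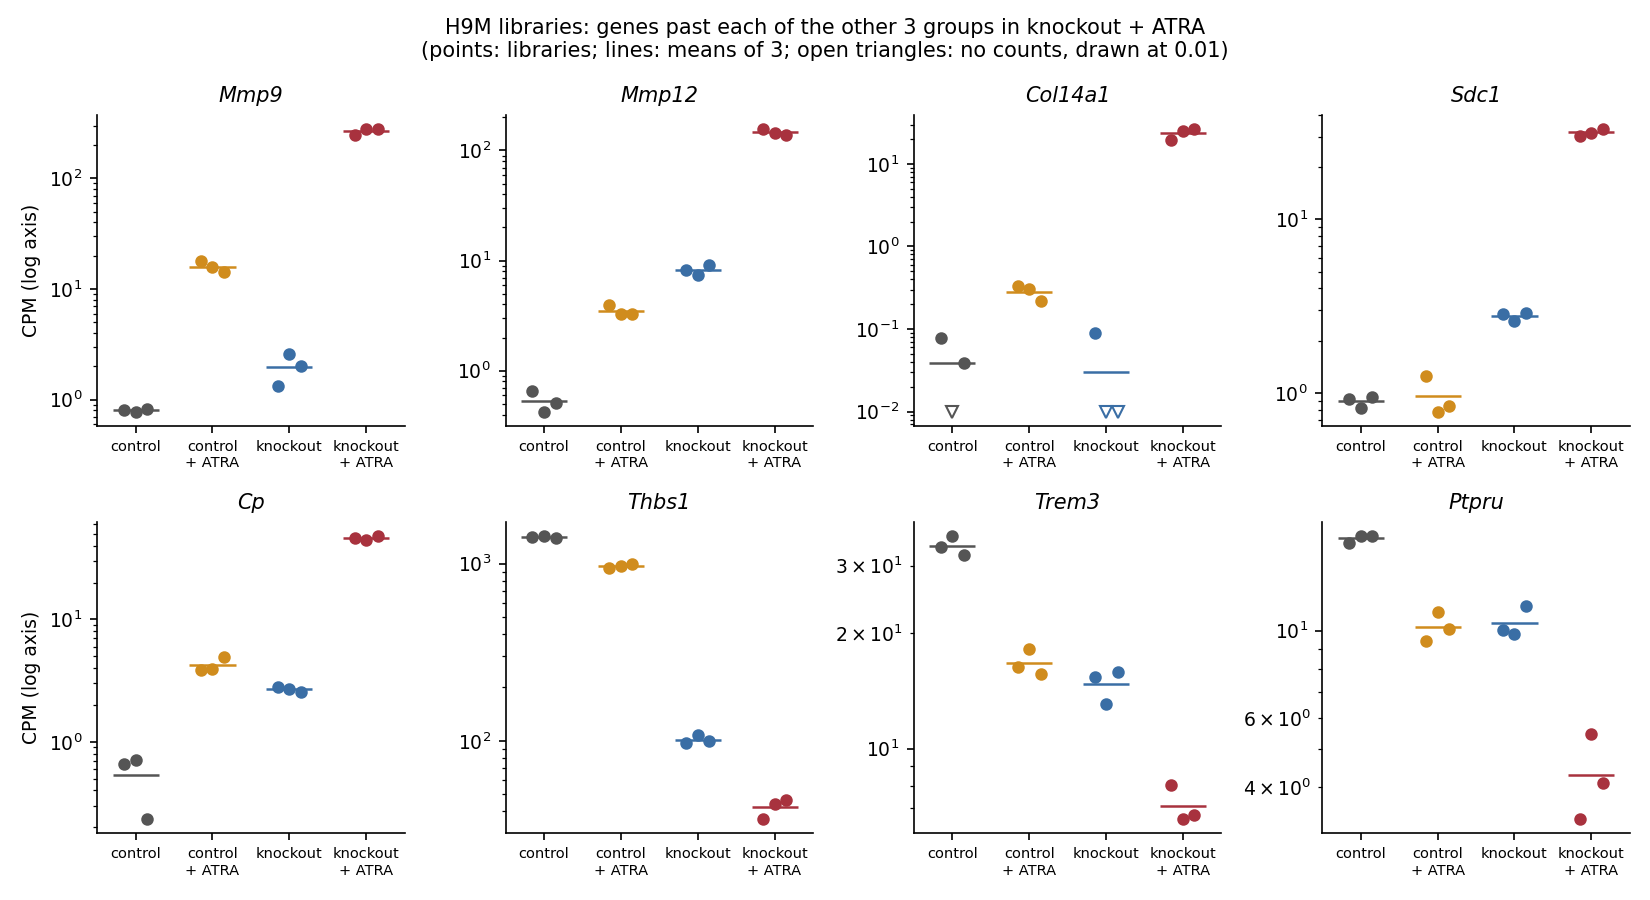
CPM (logarithmic axis) of Mmp9, Mmp12, Col14a1, Sdc1, Cp, Thbs1, Trem3 and Ptpru in the 12 H9M libraries; points are libraries, lines are means of 3 and open triangles are libraries without counts, drawn at 0.01. The first 5 genes are highest and the last 3 lowest in all 3 knockout libraries with ATRA.

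The same comparison in MN1 cells, which shares no library with that in H9M cells, called 60.6% of the same 14663 genes. Across genes the 2 sets of log2 fold changes had a Pearson r of 0.536, which is a description, since genes are not independent. The H9M and MN1 changes differed, by the test of the difference itself, for 2603 genes higher in H9M cells (17.8%) and 2281 lower (15.6%). The descriptions end in 1 code for all H9M libraries and another for all MN1 libraries, whose meaning is not stated, so only changes within a model, and not levels, are compared. Rarb was one of these genes. In MN1 cells it had 0.377, 0.226 and 0.36 CPM in untreated controls and 0.39, 0.321 and 0.367 CPM in knockouts with ATRA, overlapping groups, against the rise in H9M cells (log2 difference 6.76 ± 0.56, adjusted p = 3.18e-11). Cyp26b1 rose in MN1 cells from 1.12 ± 0.104 to 5.79 ± 0.206 CPM (difference 7.79 ± 0.55). Its H9M change rests on 2 counts over the untreated controls, so this SE can be too small. Gfi1b had 69.8 ± 3.61 CPM in untreated MN1 controls and 447 ± 21.1 CPM in treated MN1 knockouts, and the difference in its change was 6.62 ± 0.20. That difference rests on 11 counts over the untreated H9M controls. The H9M means of Gfi1b were 0.138 and 84.7 CPM.

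Changes that were larger in MN1 cells included Stab1, the scavenger receptor stabilin 1, which rose from 1.29 ± 0.203 to 5.28 ± 0.519 CPM in H9M cells and from 1.08 ± 0.21 to 382 ± 28.3 CPM in MN1 cells. Eln, the elastin gene, went from 0, 0.0323 and 0 to 7.21, 8.23 and 7.83 CPM in MN1 cells and had 0.113 and 0.012 CPM in the H9M groups, a change that did not pass the test. Amotl1, a junction protein gene, Ltbp2, a matrix protein gene, Smad6, an inhibitory SMAD gene, and Mgst1, a microsomal transferase gene, also had the larger change in MN1 cells. The sterol synthesis list had a median of -0.19 in MN1 cells, and the difference was called lower in H9M cells for 15 and higher for 2 of its 20 genes. Of the 28 cell cycle genes the difference was called higher in H9M cells for 21 and lower for 1, their median being -0.43 in MN1 cells. For primary granule genes the difference was called lower in H9M cells for 8 of 12 genes and higher for 0 (median 0.59 in MN1 cells).

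Markers of other lineages were examined in the same 6 libraries. Of B cell markers, 5 of 8 tested were called higher and 1 (Ebf1) lower, while Ms4a1 and Pax5 had no counts in any of the 6, and of T and NK cell markers 1 of 3 tested (Lck) was called lower and 8 of 13, Cd3e among them, had no counts. The summed level of all 11 B cell markers was 139.1 to 148.5 CPM in untreated controls and 155.9 to 161 CPM in knockouts with ATRA, most of it Ighm. Of 6 tested erythroid markers 4 were called higher and 0 lower; the summed level of all 12 was 632.4 to 687.7 and 691.7 to 803.6 CPM, mostly the transferrin receptor gene Tfrc. Hbb-bt and Alas2 had no counts in untreated controls, and their calls, with that of Tfrc, were lost without single libraries: 2 markers stayed called without untreated control 1 or 2 or treated knockout 1 or 3, and 1 without untreated control 3. The platelet and megakaryocyte list summed to 1473 to 1507 CPM in untreated controls and 137.8 to 152.9 CPM in knockouts with ATRA, a fall that is largely that of Thbs1, since 4 of its 11 tested members, Ppbp and Pf4 among them, were called higher and 1 lower. Gp1bb and Gp6 had no counts.

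Mast cell and basophil markers were called higher for 3 and lower for 2 of 10 tested genes; Hdc, histidine decarboxylase, rose from 48 ± 1.01 to 225 ± 1.17 CPM, while 6 of 13 members, the tryptase and chymase genes among them, had no counts. Eosinophil markers had 1 of 4 tested members called higher and summed to 1.452 to 1.845 and 1.822 to 2.884 CPM. Stromal and endothelial markers had 4 of 7 called higher and 2 lower; Pecam1 (639.7 ± 9.8 to 829.6 ± 41.8 CPM), which myeloid cells also express, made up most of their sum, and Col3a1, Cdh5, Dcn and Lum had no counts. Whether any of these cell types took part in the changes above was not tested.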

How the data were processed

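Whole-number gene counts for 24 RNA libraries were deposited by the authors as 1 table. Per the submitters' processing notes the reads were aligned with STAR 2.5.3 to mm10; no counting tool, annotation or strand setting is named in the sources used here, which leaves overlapping genes and close paralogues uncertain. Of 48795 Ensembl genes, 21762 had no count; 48349 identifiers matched a symbol in the RefSeq table (GRCm38.p6) and 446 did not. Library totals of 22402558 to 32674685 set the precision; intervals and floors cover counting error only.

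Counts were fitted with edgeR 4.0.16 (TMM, filterByExpr, quasi-likelihood F test, two-sided, 1 model of 8 groups with 16 residual degrees of freedom) in R 4.3.3, and p-values were adjusted by Benjamini-Hochberg over the 14663 genes tested, with a threshold of 0.05. CPM were counts scaled to the library total. The fit was tested on simulated data with 200 changed genes: 88.1% were recovered at 1.5-fold, 95.5% at 2-fold and 100% at 4-fold, with 8 false calls. The changed genes were balanced in direction and drawn only from genes well counted in untreated controls. They were far fewer than the 56.3% of genes called in the data. These rates therefore do not carry over to the data or to genes with few control counts.

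Named genes were Kdm1a, Hoxa9, Meis1, Gfi1, Gfi1b and Spi1, the 15 highest and 15 lowest called genes with at least 5 CPM and no overlap, in each list the 4 called members of lowest adjusted p, the 10 in each direction beyond all 3 other H9M groups and the 6 in each direction that differed between models; clone-like names and pseudogenes were left out, and fewer may be named. Other list members were named after their values were seen. The members and lists were chosen with earlier results of these data known. Alternatives were DESeq2 1.42.0, its size factors (RLE), no count filter, smaller sets of libraries, each library left out, a replicate block, and removal of a share of the ATRA control profile equal to the Kdm1a level left. Of the 26 samples, 2 are not RNA libraries and were not analysed here. Some list members are counted but not reported here by name.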

Additional observations from a re-analysis of the deposited data

Results flagged for a closer look

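For 9 of the genes at which treated knockouts passed each of the other 3 H9M groups, the change with ATRA differed between knockouts and controls by the test of that difference. The ATRA change was larger in knockouts, on the log2 scale, by 6.78 for Col14a1, 3.38 for Sdc1, 2.74 for Mmp9, 2.58 for Plcl1, 1.49 for Fam20a and 1.40 for Mmp12. It was lower in knockouts by a log2 difference of -3.01 for P2rx7, -0.73 for Thbs1 and -0.54 for Ptpru. P2rx7 rose with ATRA in controls from 0.0863 to 11.1 CPM and in knockouts from 6.78 to 102 CPM. Its level in untreated controls rests on 7 counts. The calls for Col14a1 and Ptpru were lost without single libraries.

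The change from untreated control to knockout with ATRA differed between H9M and MN1 cells for 4884 genes. Among those named, it was higher in H9M cells by 7.79 on the log2 scale for Cyp26b1, 7.67 for Nrip1, 6.91 for Smpd3, 6.76 for Rarb, 6.62 for Gfi1b and 5.64 for Sdc1. The untreated H9M controls held 11 counts of Gfi1b and 2 of Cyp26b1, and means of 0.0614 CPM of Nrip1 and 0.137 CPM of Rarb. These differences therefore rest on few counts. In CPM, Gfi1b went from 0.138 to 84.7 in H9M cells and from 69.8 to 447 in MN1 cells. Nrip1 went from 16.9 ± 0.237 to 28.6 ± 2.13 CPM in MN1 cells. Smpd3, a sphingomyelinase gene, fell from 15.2 ± 0.108 to 0.52 ± 0.11 CPM in MN1 cells, with 0 and 0.0148 CPM in the H9M groups, so its H9M change rests on almost no counts. The difference was -11.56 for Eln, -8.12 for Ltbp2, -7.10 for Amotl1, -6.36 for Stab1, -6.28 for Smad6 and -5.66 for Mgst1. Eln is a fitted value on few H9M counts (0.113 and 0.012 CPM).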

How the results depend on the processing

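All 10 counts of calls (5 comparisons, each direction) stayed within 1.5 times the reported count under every alternative that gave a value. For treated knockout against untreated control they ran from 3918 to 4395 higher and from 3615 to 4168 lower; DESeq2 called 4275 and 3615, and leaving out single libraries gave 3918 to 4029 and 3745 to 3909. No named result reversed. DESeq2 size factors moved the median of all genes by 0.025 on the log2 scale and the share of calls that were higher from 50.5% to 54.2%, with 0 genes called the opposite way. Smaller fits did not give every result, since they held fewer groups.

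Replicate numbers are shared by the groups in the labels but the samples share only a number: deviations from the group means of same-numbered libraries correlated at 0.023, -0.039 and -0.009. A replicate block gave 4158 higher and 4110 lower calls and kept 8184 of 8249 calls; of the named genes, Alas2 alone lost its call (adjusted p = 0.0506). Without the low-count filter Smpd3 was not called different between models (adjusted p = 0.0615), nor without any one untreated control (0.0544 to 0.0569) or treated knockout 1 (adjusted p = 1). Some list medians moved: with the 12 H9M libraries alone the MHC class II median was 0.96, the stem and progenitor median 0.41 and the retinoic acid median 1.96. Lower members of the myeloid factor, oxidase and lysosome lists, 2 each, were 1 under several settings, as were stromal markers; eosinophil markers called higher were 0 or 2 in place of 1, and stromal ones 2 in place of 4 with the 6 libraries compared alone. The cause was not tested. With 3 libraries a group, the folds of genes at or near 0 counts in one group are limited by depth.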

Other observations

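Transforming growth factor and interferon gamma receptors rose with the other cytokine receptors. Tgfbr2 had 69.6, 66 and 65.9 CPM in untreated controls and 159, 162 and 169 CPM in knockouts with ATRA. The interferon gamma receptor genes Ifngr1 and Ifngr2 rose from 433 ± 3.87 to 737 ± 6.6 and from 42.4 ± 0.787 to 91.7 ± 4.26 CPM. Ifngr1 was at 628 ± 12.1 CPM in controls with ATRA and 424 ± 3 CPM in knockouts alone, whereas Ifngr2 was at 49.1 ± 2.24 and 86.1 ± 4.3 CPM. The 2 chains of 1 receptor were thus high in different groups, Ifngr1 with ATRA and Ifngr2 in knockouts.

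Il10ra, the ligand-binding chain of the IL-10 receptor, rose from 2.83 ± 0.225 to 26.1 ± 1.29 CPM. Among lysosomal genes, Lamp1 rose from 437 ± 10.5 to 744 ± 15.9 CPM and the cathepsin B gene Ctsb from 337 ± 6.98 to 689.9 ± 3.98 CPM. Mcpt8, a basophil protease gene, fell from 16.9 ± 0.592 to 6.7 ± 0.39 CPM while Hdc rose.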
